A study of Homo sapiens with 14 samples.

Results

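MOLM14, a human acute myeloid leukaemia line whose growth depends on an internal tandem duplication in the receptor kinase FLT3, was sampled after short exposure to gilteritinib, a drug that blocks the kinases FLT3 and AXL. The exposed group, called acute here, held 3 libraries of parental MOLM14 cells treated for 48 hours at 100 nM: 1 with no added ligand, called gilteritinib alone, 1 with gilteritinib and the growth factor FGF2 at 10 ng/mL, and 1 with gilteritinib and FLT3 ligand (FL) at 10 ng/mL. They were set against 3 libraries of parental MOLM14 cells whose treatment is given as none, with no vehicle named. These 6 were taken from a series of 14 poly(A) RNA-seq libraries by their labels, at a point when earlier results of these data were known. The other 8, from early gilteritinib-resistant MOLM14 lines kept with FGF2 (4 libraries) or FL (4 libraries) at 10 ng/mL and given the same dose for 48 hours, served to estimate the spread and appear with values only. Nothing states that the libraries of a group came from separate cultures, so a p-value here covers the spread among these samples and no more. With 1 library for each ligand state, that spread also includes the differences between ligands.

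Genes were kept as moving together when all 3 acute libraries lay on the same side of the untreated cells. Of 15756 genes tested, 5663 (35.9%) lay above all 3 parental libraries in each acute library, and 5269 (33.4%) lay below them. The looser comparison with the parental mean gave 6786 genes (43.1%) above it in all 3 acute libraries and 6077 (38.6%) below it. Across all 14 libraries, edgeR's quasi-likelihood test, adjusted by Benjamini-Hochberg with a threshold of 0.05, the source of every adjusted p given here, called 5086 genes (32.3%) higher and 4773 (30.3%) lower in acute than in parental cells. Both conditions held together for 4901 genes (31.1%) that were higher and 4693 (29.8%) that were lower, 9594 in all. At 2-fold or more, 2663 genes (16.9%) were higher and 2205 (14%) lower. In one direction or the other 9859 genes passed (62.6%), so the counts in the gene lists below are to be read against that share. The median log2 fold change of all genes tested was 0.07.

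FLT3 is a receptor tyrosine kinase of blood progenitors that drives cell growth through STAT5, the RAS and MAPK cascade, and PI3K and AKT. AKT keeps FOXO transcription factors out of the nucleus, and MYC and the E2F factors downstream set the programmes of ribosome production and DNA replication. E2F factors act on the genes of S phase, and the DREAM and MuvB complexes on those of mitosis. The gene lists below follow this order, from the receptor to its outputs and on to metabolism, lysosomes, cell death and differentiation. They were chosen with earlier results of these data known, so their counts and medians describe the lists and test nothing.

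Estimated counts summed to 25723555 to 30370418 in the acute libraries and 28048099 to 32105777 in the parental libraries. Levels are given as CPM, counts scaled to a common library size, which are not corrected for gene length and compare libraries, not genes. Correlations of log2 CPM across genes were 0.975 to 0.984 among acute libraries and 0.985 to 0.988 among parental libraries, and 0.892 to 0.920 between an acute and a parental library. Genes are the points of these correlations and are no replicates. The 12 markers of myeloid leukaemia cells were all above 1 CPM in at least 1 library, and summed to 2051, 1858 and 1922 CPM in acute and 1240, 1237 and 1230 CPM in parental libraries. Their members did not all move with the sum: FLT3 held the largest part in every library, and MPO and FCGR1A fell. All 6 B cell markers, 6 of 7 T and NK cell markers, 8 of 9 erythroid and megakaryocyte markers, 5 of 7 fibroblast and endothelial markers and 3 of 5 epithelial markers stayed under 1 CPM in all 6 libraries. The exception among lymphoid markers, NKG7, a granule membrane gene, brought the T and NK sum to 37.4, 39.3 and 39.1 CPM in acute and 21.1, 23.9 and 24.5 CPM in parental libraries. B cell markers summed to at most 0.687 CPM in acute and 0.969 CPM in parental libraries, and erythroid and megakaryocyte markers to at most 1.41 CPM in acute and 0.903 CPM in parental libraries. Fibroblast and endothelial markers reached at most 2.70 CPM in acute and 1.85 CPM in parental libraries, and epithelial markers at most 17.1 CPM in acute and 15.1 CPM in parental libraries. The part of other cells in the results was not tested beyond these sums.

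The largest rises among genes with a mean log2 CPM of at least 3 included a lysosomal enzyme, histones and a death gene. For these rises and the falls below, only called genes with all acute libraries beyond all parental ones were ranked. Their separation and small adjusted p thus came with the choice. SGSH (ENSG00000181523), a sulfamidase that breaks down heparan sulfate in lysosomes, had 95.7, 50.96 and 67.3 CPM in the acute libraries (drug only, plus FGF2, plus FL, the order kept for all acute values below) and 2.12, 1.99 and 2.59 CPM in parental libraries 1 to 3. Every acute value was above every parental one, and the log2 fold change was 4.99 (SE 0.53, adjusted p = 1.89e-06). Values in parentheses after a gene are likewise log2 fold changes, acute over parental. The neighbouring anion transporter gene SLC26A11 was under 1 CPM in all 3 parental libraries and stood at 45.8, 19.8 and 33.9 CPM in acute libraries (5.996, SE 0.41). BMF (ENSG00000104081), a BH3-only gene whose protein promotes mitochondrial cell death, had 455, 349 and 368 CPM in acute and 22.3, 27.2 and 27.4 CPM in parental libraries, with no overlap (3.93, SE 0.34, adjusted p = 2.51e-07). Also in this group were the histone genes H2AC6 (4.64) and H2BC12 (3.98), the metalloprotease gene ADAM28 (4.38), the calcium-binding gene CAPS (4.25), the adenylyl cyclase gene ADCY4 (3.70), the p53 target TP53INP1 (3.69), the lipid transporter gene ABCA7 (3.64), the receptor gene KIT (3.61) and RIMBP3C (3.81). RIMBP3C and the histone genes belong to families of near-identical copies, between which reads can be shared, so their values are uncertain. Without the gilteritinib-alone library the RIMBP3C value was 3.04.

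Of the 12 largest falls, 10 were in genes of DNA replication, its precursors or the cell cycle. MCM10 (ENSG00000065328), a replication initiation factor, had 1.18, 1.58 and 0.616 CPM in acute and 94.9, 97.5 and 82.4 CPM in parental libraries. The groups were far apart, with a log2 fold change of -6.32 (SE 0.22, adjusted p = 1.81e-11). RRM2 (ENSG00000171848), the small subunit of ribonucleotide reductase, had 2.07, 3.61 and 1.001 CPM in acute and 131, 136 and 143 CPM in parental libraries (-5.92, SE 0.26, adjusted p = 2.53e-10). CDC45, a part of the replicative helicase, had 1.28, 2.03 and 0.808 CPM in acute and 81.2, 88.7 and 80.1 CPM in parental libraries (-5.91, SE 0.20). The group also held the MuvB partner MYBL2 (-5.84), the helicase loader CDC6 (-5.57), the checkpoint mediator CLSPN (-5.26), the exonuclease gene EXO1 (-5.09), thymidine kinase TK1 (-5.08), the condensin subunit NCAPG (-4.96), the repressor E2F8 (-4.68), the transsulfuration enzyme CBS (-4.86) and the growth factor binding protein IGFBP2 (-5.17).

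A level of 1 CPM was crossed by few genes. In all, 16 genes were under 1 CPM in every parental library and at 5 CPM or more in every acute library, and 20 genes did the reverse. After SLC26A11, the most abundant to appear were the transcription factor gene SOX13 with 25.5, 9.42 and 11.4 CPM in acute and 0.322, 0.222 and 0.216 CPM in parental libraries, KLHDC8B, CFAP70, ABHD8, the peroxisomal aminotransferase AGXT, the glycosyltransferase B3GNT8 and C1orf226, with log2 fold changes from 3.70 to 5.90. KLHDC8B (4.83) moved to 5.43 without parental replicate 2. Among the genes that dropped under 1 CPM, the mitotic kinase gene PBK had 0.426, 0.275 and 0.231 CPM in acute and 24.7, 29.2 and 28.5 CPM in parental libraries (-6.43, SE 0.26, adjusted p = 7.09e-11). The rest of those named were ZNF367, E2F2, the G1 cyclin CCNE1, the neuropeptide gene GAL, the kinetochore gene SPC25, the fatty acid receptor GPR84 and AUNIP, with changes from -7.07 to -4.21. GAL had 0.0328, 0.275 and 0 CPM in acute and 14.4, 14.3 and 15.4 CPM in parental libraries. For both GAL and GPR84 the FGF2 library was the highest of the acute ones, and the fall was larger without it. Without the FGF2 library GAL stood at -9.40 and GPR84, at -5.14 with all libraries, at -5.83. At so few counts in acute cells, these fitted values depend on the small count that the fit adds.

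**Figure D1:**
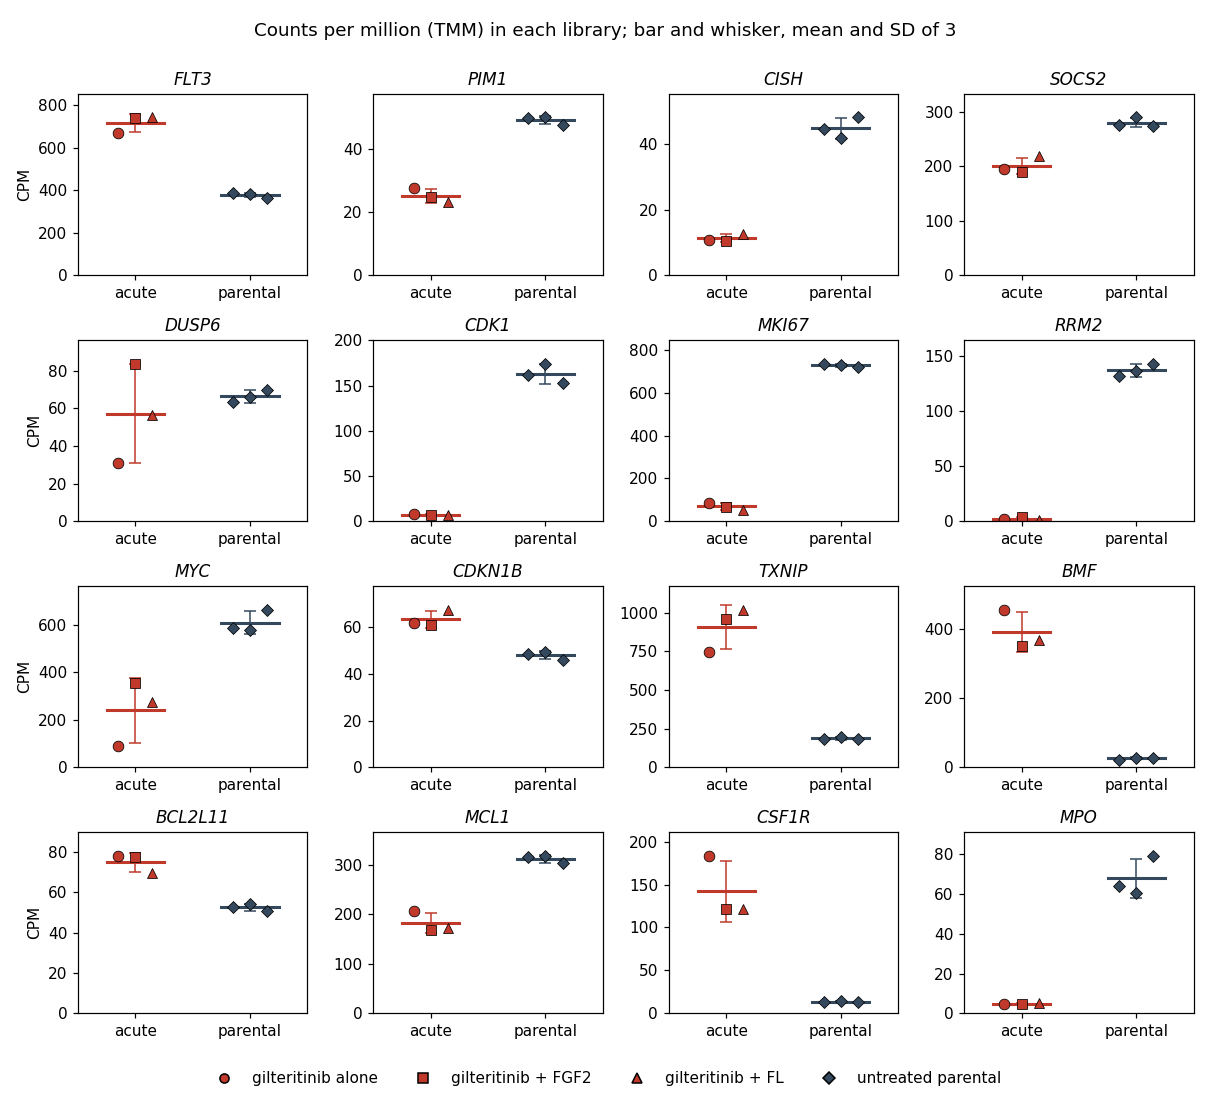
CPM (on TMM library sizes) of 16 genes in each library, with the 3 acute libraries on the left of each panel (circle, gilteritinib alone; square, with FGF2; triangle, with FL) and the 3 untreated parental libraries on the right; bars and whiskers are the mean and SD of 3. The acute symbols lie apart from the parental ones in every panel but DUSP6, and in the MYC panel the library with gilteritinib alone (89.9 CPM) lies well under the other acute libraries.

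Transcripts of the target itself were more abundant after exposure. FLT3 (ENSG00000122025) had 667, 738 and 742 CPM in acute and 387, 379.9 and 365 CPM in parental libraries. There was no overlap, and the log2 fold change was 0.92 (SE 0.10, adjusted p = 2.46e-06). Of the 25 receptor kinases and cytokine receptors tested, 14 rose and 3 fell, with a median log2 fold change of 0.71. CSF1R, the receptor of macrophage colony-stimulating factor, had 183, 122 and 121 CPM in acute and 13.1, 13.96 and 13.3 CPM in parental libraries (3.40, SE 0.34, adjusted p = 9.79e-07). CSF3R, which binds granulocyte colony-stimulating factor, had 437, 310.0 and 331 CPM in acute and 90.1, 88.5 and 86.4 CPM in parental libraries (2.03, SE 0.21, adjusted p = 1.06e-06). FGFR3, a receptor for FGF ligands, had 163, 128 and 177 CPM in acute and 15.6, 19.8 and 19.9 CPM in parental libraries (3.08, SE 0.33, adjusted p = 2.01e-06). KIT, the stem cell factor receptor, and AXL, which the drug also inhibits, rose as well, with 37.2, 23.1 and 31.1 CPM for KIT in acute and 2.22, 2.59 and 2.66 CPM in parental libraries and 17.5, 21.5 and 19.1 CPM for AXL in acute and 6.91, 7.28 and 8.31 CPM in parental libraries. Their log2 fold changes were 3.61 (SE 0.76) and 1.37 (SE 0.28). The 3 that fell were TYRO3, a relative of AXL (-2.87, adjusted p = 1.13e-05), the interleukin receptor gene IL7R (-2.58, adjusted p = 4.86e-05) and the erythropoietin receptor EPOR (-0.40, adjusted p = 0.0157). EPOR lost its call without either of 2 libraries in turn, with adjusted p up to 0.0654.

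STAT5 activates feedback inhibitors and survival genes downstream of FLT3. Of 16 STAT5 target genes tested, 10 fell and 2 rose (median -0.75). CISH (ENSG00000114737), a feedback inhibitor of cytokine receptors, had 10.7, 10.5 and 12.6 CPM in acute and 44.6, 41.7 and 48.1 CPM in parental libraries. No acute value reached the parental range, with a log2 fold change of -1.996 (SE 0.12, adjusted p = 7.93e-09). Its RefSeq promoter (GRCh38.p14, minus strand, chr3:50611869-50612024, from 250 to 95 bases before the start) is shown because it held 4 matches to the STAT motif TTCNNNGAA, in capitals. A STAT match was present in 18.2% of the 11 promoters of this list with a sequence, which is 2 promoters, and in 6.31% of all 10556. It was present in 34.6% of 26 promoters of interferon-stimulated genes, a list in which more genes rose than fell. For genes at least 2-fold lower the share was 5.9%, so the CISH promoter is not typical of the genes that fell.

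CISH promoter: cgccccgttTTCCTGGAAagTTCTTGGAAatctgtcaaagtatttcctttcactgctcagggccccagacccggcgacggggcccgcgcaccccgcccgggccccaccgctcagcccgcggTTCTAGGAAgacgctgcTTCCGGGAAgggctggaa

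OSM, a cytokine of the interleukin-6 family, had 2.49, 2.34 and 2.35 CPM in acute and 11.4, 12.9 and 15.8 CPM in parental libraries (-2.48, SE 0.21, adjusted p = 1.47e-07). The survival kinase gene PIM1 had 27.4, 24.7 and 23.1 CPM in acute and 49.6, 49.8 and 47.5 CPM in parental libraries, with no overlap (-0.96, SE 0.27, adjusted p = 0.00699). SOCS2, another feedback inhibitor, also fell, with 195, 189.8 and 218 CPM in acute and 276, 290.1 and 275 CPM in parental libraries (-0.48, SE 0.14, adjusted p = 0.00818). Related members gave -1.10 for SOCS3 (adjusted p = 0.0137, and up to 0.0547 with a library left out), -2.38 for the differentiation inhibitor ID1, -1.45 for the G1 cyclin CCND2 and -1.94 for the ERK phosphatase DUSP5. The members that rose were BCL6, a repressor that STAT5 is known to silence, with 14.6, 11.8 and 10.5 CPM in acute and 3.02, 2.84 and 3.27 CPM in parental libraries (2.01, SE 0.28, adjusted p = 2.53e-05), and IRF4 (1.66, adjusted p = 0.0442), whose call was lost without any 1 of 5 libraries (adjusted p up to 0.137). PIM2, a relative of PIM1, was not called (-0.02, adjusted p = 0.898), and its 3 acute values of 8.76, 13.4 and 11.2 CPM stood on both sides of the parental 11.1, 11.4 and 11.3 CPM.

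Of the 41 lists, the outputs of the RAS and MAPK cascade had the widest gap between the medians of the 3 acute libraries. Of 21 such genes tested, 11 fell and 2 rose (median -0.90). Set against the parental mean, the list's median log2 difference was -1.59 for gilteritinib alone, -0.52 for the FGF2 library and -0.94 for the FL library. With 1 library each, these differences between ligands have no test. ETV4, an ERK-induced ETS factor, had 0.131, 1.72 and 0.269 CPM in acute and 25.3, 24.4 and 26.99 CPM in parental libraries (-5.16, SE 0.52, adjusted p = 1.06e-06). The FGF2 library was the highest of the 3 acute ones, and without it the value was -7.01. SPRY4, a feedback inhibitor of RAS signalling, showed the same order, with 0.426, 1.89 and 0.731 CPM in acute and 7.62, 7.24 and 9.1 CPM in parental libraries (-2.97, SE 0.39, adjusted p = 1.15e-05), and -3.80 without the FGF2 library. ETV5, a relative of ETV4, had 2.72, 15.2 and 10.7 CPM in acute and 22.99, 27.8 and 30.9 CPM in parental libraries (-1.52, adjusted p = 0.00455), and FOSL1, an AP-1 subunit, gave -1.85. DUSP6, the phosphatase that ERK induces against itself, was not called (-0.22, SE 0.30, adjusted p = 0.54): its 30.99, 83.7 and 56.4 CPM in acute libraries spanned the 63.3, 65.8 and 69.8 CPM of parental libraries. EGR1, an immediate early gene, ran the other way among ligands, with 47.3, 14.2 and 12.9 CPM in acute and 139, 135 and 155 CPM in parental libraries (-2.52, SE 0.39, adjusted p = 5.87e-05). It was least reduced with gilteritinib alone, and reached -3.40 without that library. The 2 genes that rose were FOS, with 210.3, 138 and 134 CPM in acute and 74.5, 76.96 and 77.9 CPM in parental libraries (1.07, adjusted p = 6.02e-04), and the phosphatase gene DUSP4 (1.13, adjusted p = 0.0239), which lost its call without any 1 of 5 libraries (adjusted p up to 0.0989).

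Most FOXO targets rose. Of 19 FOXO and PI3K-low target genes tested, 12 rose and 1 fell (median 0.51). TXNIP (ENSG00000265972), an inhibitor of glucose uptake and of thioredoxin, had 747, 959 and 1019.5 CPM in acute and 185, 197 and 181 CPM in parental libraries. All acute values were well above the parental ones (2.28, SE 0.12, adjusted p = 1.81e-09). Its RefSeq promoter stretch (GRCh38.p14, minus strand, chr1:145996669-145996729, from 150 to 90 bases before the start) is given because it held a match to the FOXO motif TGTTTAC, read on the other strand, between 2 matches to CCAAT. A FOXO match was present in 16.7% of the 18 promoters of this list with a sequence, which is 3 promoters. It was present in 2.25% of the 10556 promoters of all genes tested. In promoters of genes at least 2-fold higher its share was 3.0%. The share was 13.6% of 22 promoters in the RAS and PI3K core, a list that did not rise as a whole.

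TXNIP promoter: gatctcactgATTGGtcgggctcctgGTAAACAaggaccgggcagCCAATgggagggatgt

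PIK3IP1, which restrains PI3K, had 37.5, 24.8 and 24.1 CPM in acute and 1.64, 1.33 and 1.73 CPM in parental libraries (4.20, SE 0.28, adjusted p = 1.31e-08). FOXO4 (1.34) and FOXO3 (0.47) also rose, while FOXO1 was not called, with 14.7, 14.1 and 15.01 CPM in acute and 13.4, 13.5 and 12.6 CPM in parental libraries (0.15, adjusted p = 0.512). KLF2, a FOXO target, was called higher (0.59, adjusted p = 0.0258) but lost the call without any 1 of 4 libraries (adjusted p up to 0.116). KLF6 was the member that fell (-0.37, adjusted p = 0.0409), and lost its call without any 1 of 5 (adjusted p up to 0.159).

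Within the RAS and PI3K core itself, 8 of 29 genes rose and 11 fell, and the median was -0.03. That median changed sign under upper quartile scaling, to 0.07. PTPN11, the phosphatase that couples receptors to RAS, fell, with 144, 145 and 144 CPM in acute and 286, 296 and 266 CPM in parental libraries (-0.97, SE 0.06, adjusted p = 9.98e-09). NRAS (-0.73) fell, and the adaptor gene GAB2 (1.21), the mTORC1 inhibitors TSC1 (0.48) and TSC2 (0.96) and the kinase gene MAP2K2 (0.61) rose. MAPK3 (0.34) and SOS1 (0.47) were called higher but each lost the call without 1 library or another, with adjusted p up to 0.0986 for MAPK3 and 0.176 for SOS1.

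**Figure D2:**
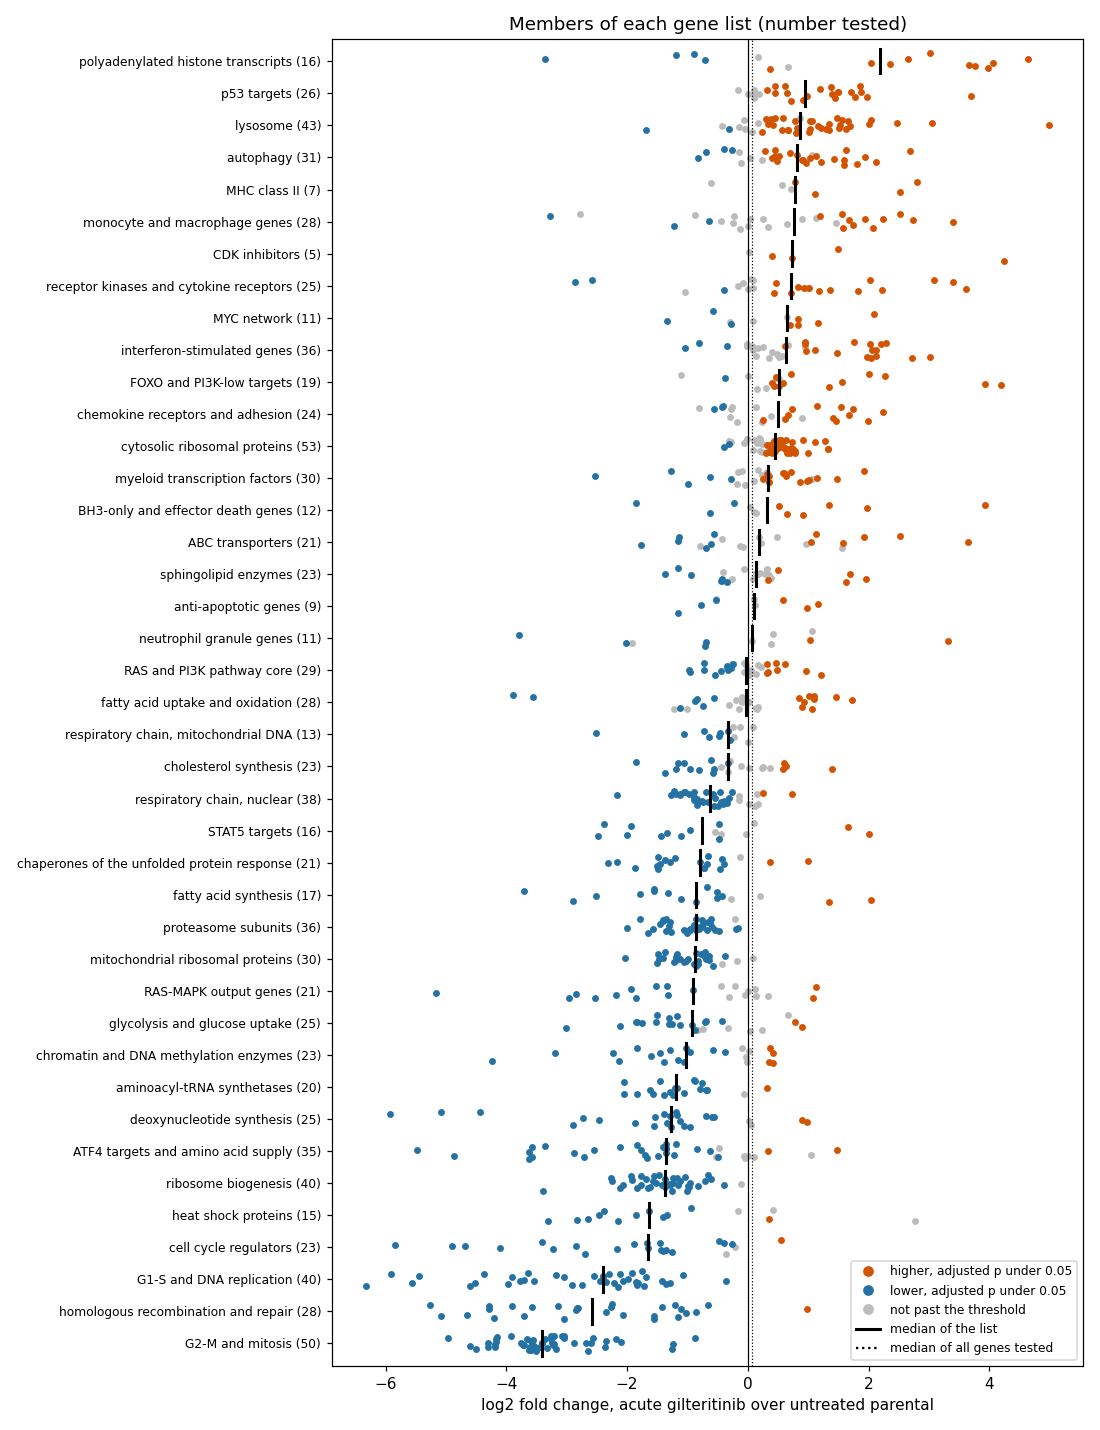
Log2 fold change, acute over untreated parental, of every tested member of 41 gene lists, sorted by list median; orange points passed the test upward, blue points downward, grey points did not pass, and the dotted line is the median of all 15756 genes (0.07). Lists of mitosis, repair and DNA replication lie at the bottom with nearly all members blue, and lists of histones, p53 targets and lysosomes lie at the top.

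Every tested member of both cell cycle lists fell. All 40 genes of G1-S and DNA replication were lower, with a median log2 fold change of -2.39, and all 50 genes of G2-M and mitosis, with a median of -3.41. In bulk RNA, fewer cells in S phase or mitosis and less of these transcripts per cell cannot be told apart. MCM4 (ENSG00000104738), a subunit of the replicative helicase, had 34.8, 39.7 and 36.2 CPM in acute and 801, 748 and 731 CPM in parental libraries (-4.36, SE 0.10, adjusted p = 9.48e-13). In the early resistant lines, labelled with the same dose and time, MCM4 stood at 590.2 to 718 CPM in the FGF2 lines and 552 to 636 CPM in the FL lines. CDC6, which loads the helicase, had 2.2, 1.68 and 1.42 CPM in acute and 82.6, 90.7 and 80.1 CPM in parental libraries (-5.57, SE 0.14). Flap endonuclease FEN1 (-3.65), the clamp loader subunit RFC3 (-3.05), the origin subunit ORC6 (-3.18) and GINS1 (-3.98) followed. CDK1 (ENSG00000170312), the kinase that starts mitosis, had 8.1, 6.91 and 6.43 CPM in acute and 162, 174 and 152 CPM in parental libraries (-4.51, SE 0.12, adjusted p = 2.62e-12). MKI67, the proliferation marker, had 85.1, 66.8 and 54.5 CPM in acute and 737, 729 and 720.3 CPM in parental libraries (-3.40, SE 0.17, adjusted p = 8.55e-10). The Aurora kinase genes AURKA (-3.07) and AURKB (-3.61), cyclin CCNA2 (-4.60), the kinesins KIF11 (-3.91) and KIF2C (-3.24), the spindle factor TPX2 (-3.26) and the condensin subunit NCAPH (-4.30) lay in the same range. The medians of the 3 acute libraries lay close together here, at -2.38, -2.45 and -2.47 for G1-S and -3.32, -3.39 and -3.58 for G2-M.

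Promoters of these genes carried the elements known from cell cycle control. The E2F motif was searched as TTTCCCGC, TTTGGCGC, TTTCGCGC and TTTGCCGC, and the CHR, the cell cycle homology region bound by MuvB complexes, as TTTGAA and TTTAAA, with CCAAT as its usual partner, all on both strands. RefSeq promoters (GRCh38.p14, 250 bases before to 50 after the start) were at hand for 33 G1-S and 43 G2-M genes. E2F matches were present in 48.5% of the G1-S promoters and in 5.34% of all 10556. CHR matches were present in 83.7% of G2-M promoters and in 16.1% of all, and CCAAT in 74.4% and 36.7%. Neither element was confined to cell cycle genes. CHR matches were also present in 52.2% of 23 promoters of monocyte and macrophage genes, a list in which more genes rose than fell. CCAAT was present in 95% of 20 promoters of unfolded protein response chaperones. Among all genes at least 2-fold lower, 8.95% had an E2F match and 22.8% a CHR match, against 3.45% and 15.3% of genes at least 2-fold higher. A match describes letters and is no proof of binding. The stretches below show E2F matches in capitals for E2F1 (chr20:33686386-33686465, minus strand) and the helicase subunit MCM6 (chr2:135876518-135876603, minus strand). Capitals mark CHR matches, and CCAAT matches where present, for RRM2 (chr2:10122609-10122719, plus strand), NCAPG (chr4:17810919-17810978, plus strand) and the mitotic kinase PLK1 (chr16:23678794-23678888, plus strand). RRM2 belongs to the list of deoxynucleotide synthesis and not to the G2-M list. Its TTTAAA lies close to the start, and whether it acts as a CHR was not tested. MCM6, PLK1, GAA and CTSA were named for their promoters after their values had been seen. MCM6 had 35.6, 41.7 and 30.4 CPM in acute and 289, 259.9 and 264 CPM in parental libraries (-2.91), and PLK1 10.5, 12.1 and 11.2 CPM in acute and 148, 140.3 and 137 CPM in parental libraries (-3.65).

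E2F1 promoter: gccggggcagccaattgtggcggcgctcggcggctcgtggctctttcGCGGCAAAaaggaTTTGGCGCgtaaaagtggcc
MCM6 promoter: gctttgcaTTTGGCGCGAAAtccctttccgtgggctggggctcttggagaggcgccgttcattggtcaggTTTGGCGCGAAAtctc
RRM2 promoter: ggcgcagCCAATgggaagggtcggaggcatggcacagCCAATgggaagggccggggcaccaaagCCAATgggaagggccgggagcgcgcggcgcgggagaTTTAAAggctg
NCAPG promoter: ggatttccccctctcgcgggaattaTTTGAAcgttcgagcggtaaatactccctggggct
PLK1 promoter: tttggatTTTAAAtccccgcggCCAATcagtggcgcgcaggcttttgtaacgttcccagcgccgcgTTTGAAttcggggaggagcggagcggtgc

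**Figure D3:**
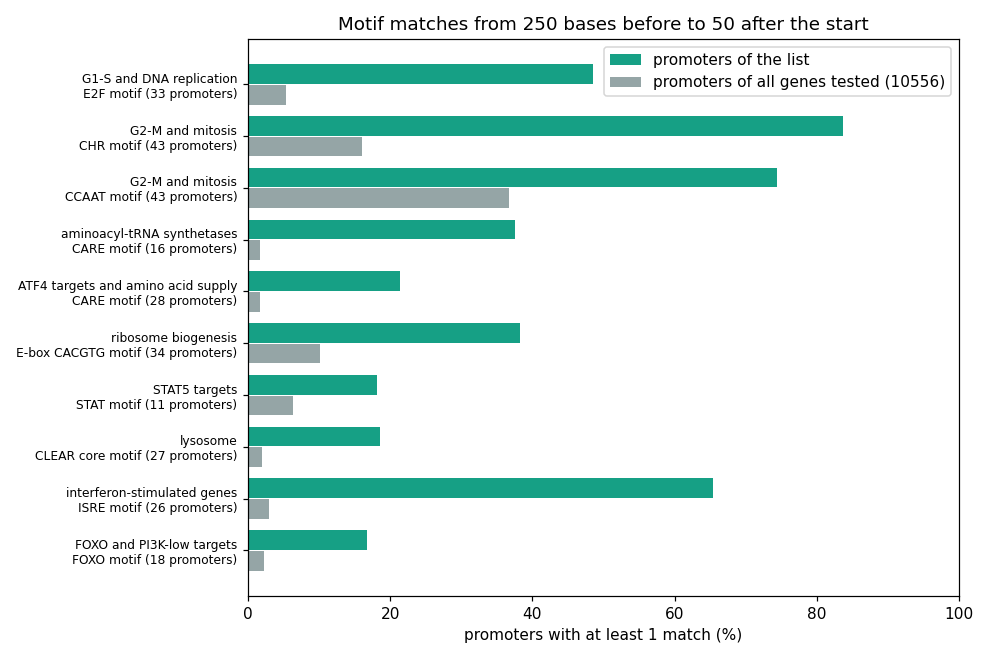
Share of RefSeq promoters with at least 1 match to the named motif, for the promoters of a gene list (green) and of all 10556 tested genes with a promoter (grey); the x axis is in percent. The CHR bar of the G2-M list (83.7%) and the ISRE bar of interferon-stimulated genes (65.4%) are the longest of the motifs other than CCAAT.

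Among regulators of the cycle, 20 of 23 fell and 1 rose (median -1.65). E2F1, the activator whose promoter is shown above, had 2.33, 3.54 and 2.69 CPM in acute and 47.6, 46.4 and 53.7 CPM in parental libraries (-4.11, SE 0.14, adjusted p = 2.04e-11). FOXM1, the activator of late cell cycle genes, had 10.2, 6.6 and 8.24 CPM in acute and 91.9, 88.4 and 87.6 CPM in parental libraries (-3.42, SE 0.13). E2F2 (-4.89), CDK2 (-1.89) and the MuvB subunit LIN9 (-2.17) were lower too. RBL2, which encodes the pocket protein of the DREAM complex, was the member that rose, with 221, 189 and 191 CPM in acute and 143, 139 and 127 CPM in parental libraries (0.55, SE 0.10, adjusted p = 1.69e-04). Of the other G1 genes, CCND3 had 161, 238 and 222 CPM in acute and 283, 284 and 296 CPM in parental libraries (-0.47, adjusted p = 0.0121) and lost its call without gilteritinib alone (adjusted p = 0.0536), and CDK6 was not called (-0.22, adjusted p = 0.13). Of 5 CDK inhibitor genes tested, 4 rose. CDKN1A, the p21 gene, had 529, 589.6 and 637 CPM in acute and 199.8, 199 and 223 CPM in parental libraries (1.496, SE 0.23, adjusted p = 6.06e-05). CDKN1B, the p27 gene, had 61.7, 60.9 and 67.4 CPM in acute and 48.5, 49.3 and 45.99 CPM in parental libraries (0.40, SE 0.11, adjusted p = 0.00535). CDKN2D (0.73) and the low-level CDKN1C (5.51, 1.65 and 2.93 CPM in acute and 0.193, 0.259 and 0.072 CPM in parental libraries) completed the group.

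Most genes of nucleotide supply and DNA repair fell. Of 25 genes of deoxynucleotide synthesis, 21 fell (median -1.27), among them thymidylate synthase TYMS with 9.41, 15.2 and 11.3 CPM in acute and 268, 261 and 252 CPM in parental libraries (-4.44, SE 0.14, adjusted p = 8.80e-12), RRM1 (-2.46) and GMPS (-1.29). The 2 that rose were RRM2B, the p53-induced reductase subunit, with 81.8, 71.1 and 70.6 CPM in acute and 37.3, 37.5 and 38.7 CPM in parental libraries (0.98, SE 0.11, adjusted p = 2.61e-06), and the dNTP hydrolase gene SAMHD1 (0.89, adjusted p = 5.39e-04). In homologous recombination and repair, 27 of 28 genes fell (median -2.59). BRCA1 had 14.8, 13.4 and 16.4 CPM in acute and 109, 101 and 105 CPM in parental libraries (-2.82, SE 0.08, adjusted p = 5.65e-12), and XRCC2 (-3.57), RAD51AP1 (-4.20) and the checkpoint kinase CHEK1 (-3.70) were lower. ATM, the double-strand break kinase, was the exception, with 207, 168 and 189 CPM in acute and 91.3, 102 and 92.6 CPM in parental libraries (0.98, SE 0.13, adjusted p = 1.08e-05).

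MYC, the growth regulator that FLT3 signalling sustains, fell with a wide spread. MYC (ENSG00000136997) had 89.9, 357 and 275 CPM in acute and 588, 579 and 665 CPM in parental libraries. All acute values were below all parental ones, the lowest by far with gilteritinib alone (-1.34, SE 0.32, adjusted p = 0.0022). In the network around it, 5 of 11 genes rose and 3 fell (median 0.64). The repressors MXD4 and MNT, which compete with MYC for MAX, rose, MXD4 with 99.5, 123 and 114 CPM in acute and 24.95, 18.1 and 36.3 CPM in parental libraries (2.09, SE 0.24, adjusted p = 3.38e-06) and MNT by 0.70. MYCL (1.16) and the glucose-sensing MLXIP (0.82) were higher, and MGA (-0.59) and MLX (-0.28) lower.

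Genes of ribosome production were mostly lower and those of the ribosome's own proteins mostly higher. Of 40 ribosome biogenesis genes, 39 fell and none rose (median -1.37), with list medians of -1.89 for gilteritinib alone, -1.06 for the FGF2 library and -1.31 for the FL library. Nucleolin, NCL, had 413, 707 and 650.0 CPM in acute and 2087, 2048 and 1907 CPM in parental libraries (-1.77, SE 0.15, adjusted p = 1.19e-07). ODC1, the polyamine enzyme and MYC target, had 48.8, 65.2 and 60.3 CPM in acute and 254, 259 and 241 CPM in parental libraries (-2.11, SE 0.09, adjusted p = 2.24e-10). GAR1 (-2.26), UTP20 (-2.07), TSR1 (-1.77), NOC3L (-1.62) and WDR75 (-1.15) fell as well. The E-box CACGTG, the MYC site, was present in 38.2% of 34 promoters of this list and in 10.1% of all. It was also present in 29.6% of 27 lysosomal promoters, a list in which more genes rose than fell. Among genes at least 2-fold lower, 189 of 1576 promoters had it, and among those at least 2-fold higher, 123 of 1567. Whether MYC acts through these matches was not tested. Of 53 cytosolic ribosomal protein genes, in contrast to those of biogenesis, 39 rose and 2 fell (median 0.46). RPS27 had 4291, 4655 and 4589 CPM in acute and 1807, 1866 and 1732 CPM in parental libraries (1.32, SE 0.10, adjusted p = 3.16e-08), and RPS19 (1.10), RPL37 (1.002), RPL18 (0.91), RPS20 (0.79) and RPL38 (0.69) were higher. RPSA (-0.39) and RPL14 (-0.31, adjusted p = 0.0351) were lower, and the RPL14 call was lost without any 1 of 4 libraries (adjusted p up to 0.145). All 85 cytosolic ribosomal protein genes of the table took 16.3%, 19.7% and 18.2% of all counts in acute and 12.6%, 12.9% and 12.5% in parental libraries, a difference of 5.42 percentage points (two-sided exact permutation p = 0.1, the smallest that 3 against 3 can give). Processed pseudogenes can share these reads.

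Most genes of mitochondrial ribosomes and of tRNA charging fell. Of 30 mitochondrial ribosomal protein genes, 27 fell and none rose (median -0.88), for example MRPL1 with 9.35, 13.6 and 14.2 CPM in acute and 50.4, 51.9 and 50.1 CPM in parental libraries (-2.04, SE 0.14, adjusted p = 2.00e-08). Of 20 cytosolic aminoacyl-tRNA synthetase genes, 18 fell (median -1.19), among them WARS1 (-1.39), GARS1 (-2.05), AARS1 (-1.29), YARS1 (-1.17), TARS1 (-1.21) and RARS1 (-1.46), and QARS1 rose (0.32, adjusted p = 0.00272). ATF4, the transcription factor of the integrated stress response, drives amino acid synthesis and import. In a joint list of its targets and genes of amino acid supply, 26 of 35 fell (median -1.36). PHGDH (ENSG00000092621), the first enzyme of serine synthesis, had 18.9, 29.9 and 26.6 CPM in acute and 296, 289 and 309.8 CPM in parental libraries (-3.57, SE 0.14, adjusted p = 7.48e-11). ASNS, asparagine synthetase, had 22.6, 27.3 and 27.8 CPM in acute and 89.97, 91.7 and 83.6 CPM in parental libraries (-1.77, SE 0.12, adjusted p = 1.42e-08). PSAT1 (-3.62), GPT2 (-2.88) and both chains of the leucine importer, SLC7A5 (-2.55) and SLC3A2 (-1.35), were lower. The 2 members of that list that rose were CEBPB, with 10.2, 10.00 and 14.9 CPM in acute and 4.5, 3.55 and 4.53 CPM in parental libraries (1.48, adjusted p = 1.23e-04), and DDIT3 (0.34, adjusted p = 0.0208), the CHOP gene, whose call was lost without any 1 of 3 libraries (adjusted p up to 0.0850). The core TGATGNAA of the CARE, the element ATF4 binds, was present in 37.5% of 16 synthetase promoters, 21.4% of 28 promoters of the joint list and 1.75% of all. It lies in the ASNS promoter (GRCh38.p14, minus strand, chr7:97872448-97872498) as marked by capitals.

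ASNS promoter: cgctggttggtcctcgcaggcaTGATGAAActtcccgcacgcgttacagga

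Energy metabolism shifted in parts. Of 25 genes of glycolysis and glucose uptake, 17 fell and 2 rose (median -0.92). LDHA (ENSG00000134333), lactate dehydrogenase A, had 128, 172 and 143 CPM in acute and 1216, 1222 and 1118 CPM in parental libraries (-3.005, SE 0.17, adjusted p = 3.08e-09). The lactate transporter SLC16A1 (-2.12), PGK1 (-1.86), PGAM1 (-1.84), ENO1 (-1.76) and LDHB (-1.26) fell with it. PFKFB3, which makes the activator of phosphofructokinase, rose, with 143, 77.2 and 87.1 CPM in acute and 54.3, 56.6 and 53.98 CPM in parental libraries (0.90, adjusted p = 5.29e-04). The muscle-type PFKM (0.77) rose but lost the call without any 1 of 3 libraries (adjusted p up to 0.114), and hexokinase HK2 was not called, with 121, 82.8 and 87.00 CPM in acute and 121, 123 and 122 CPM in parental libraries (-0.33, adjusted p = 0.127). In the respiratory chain, 30 of 38 nuclear genes fell (median -0.62), among them CYCS, the cytochrome c gene, with 33.8, 41.7 and 37.7 CPM in acute and 171, 187 and 152 CPM in parental libraries (-2.17, SE 0.11, adjusted p = 1.39e-09). UQCRQ (-1.27), COX6C (-1.23), NDUFS1 (-1.13), COX7B (-1.12) and SDHD (-0.98) followed, and NDUFS7 (0.72) and NDUFB5 (0.25) rose, with calls lost without 1 library or another (adjusted p up to 0.0754 and 0.218). Of the 13 genes of mitochondrial DNA, 8 fell and none rose (median -0.33), and together they took 3.91%, 3.91% and 3.52% of counts in acute and 4.99%, 4.76% and 4.63% in parental libraries (difference -1.01 percentage points, two-sided exact permutation p = 0.1, the smallest possible). MT-ND6, the gene on the light strand, had the largest change of the 13, with 57.1, 43.8 and 40.3 CPM in acute and 268, 276 and 262 CPM in parental libraries (-2.51, SE 0.13, adjusted p = 7.78e-10). It overlaps a region transcribed on the opposite strand, and the strand setting of the counting is not given in the sources used here.

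Lipid genes moved in both directions. In cholesterol synthesis, 11 of 23 genes fell and 4 rose (median -0.33). DHCR7, a late step of the pathway, had 31.5, 22.1 and 24.7 CPM in acute and 68.9, 65.6 and 67.9 CPM in parental libraries (-1.37, SE 0.16, adjusted p = 4.68e-06). CYP51A1 (-1.18), IDI1 (-1.16) and FDPS (-0.82) fell as well, while the sterol reductase TM7SF2 (1.40), the master regulator SREBF2 (0.58), the sterol carrier STARD4 (0.63) and MVD (0.60) rose. In fatty acid synthesis, 13 of 17 fell (median -0.87), among them the desaturase SCD with 149, 103 and 105 CPM in acute and 891, 891 and 861 CPM in parental libraries (-2.89, SE 0.31, adjusted p = 1.80e-06), ACSL3 (-1.33), GPAM (-1.10), ELOVL5 (-0.87) and ACLY (-0.68). The members that rose were the acetate enzyme ACSS2, with 64.4, 38.6 and 50.2 CPM in acute and 12.5, 11.5 and 13.2 CPM in parental libraries (2.04, adjusted p = 2.81e-07), and ACACB (1.35), whose product restrains fatty acid entry into mitochondria. Of 28 genes of fatty acid uptake and oxidation, 9 rose and 7 fell, with a median of -0.04 that turned to 0.07 under upper quartile scaling. Neither count exceeded the share of all genes tested, 32.3% higher and 30.3% lower. The carnitine carrier SLC25A20 (1.73), the long-chain dehydrogenase ACADVL (1.10) and the transporter SLC27A1 (1.10) rose, and the fatty acid binding gene FABP5, with 4.39, 9.55 and 6.85 CPM in acute and 78.7, 85.8 and 79.2 CPM in parental libraries (-3.55, adjusted p = 3.72e-09), ACOT7 (-3.89) and HADH (-0.84) fell.

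Most protein folding and proteasome genes were lower. Of 15 heat shock genes, 11 fell (median -1.63), with list medians of -2.04 for gilteritinib alone, -1.43 for the FGF2 library and -1.50 for the FL library. HSPA8, the constitutive HSP70, had 200.2, 339 and 289.8 CPM in acute and 2753, 2813 and 2641 CPM in parental libraries (-3.31, SE 0.16, adjusted p = 5.07e-10). HSP90AA1, the cytosolic HSP90 that supports many kinases, had 360.4, 417 and 367 CPM in acute and 2169, 2167 and 1984 CPM in parental libraries (-2.47, SE 0.09, adjusted p = 3.44e-11). HSPH1 (-2.83), HSPE1 (-2.65), HSPD1 (-2.38) and DNAJA1 (-1.85) fell and their regulator HSF1 rose (0.36, adjusted p = 7.74e-04). Of 21 chaperones and factors of the unfolded protein response, 18 fell (median -0.79). XBP1, its transcription factor, had 44.1, 76.9 and 67.3 CPM in acute and 318, 317 and 299 CPM in parental libraries (-2.31, SE 0.20, adjusted p = 1.77e-07), and CALR (-1.86), PDIA6 (-1.499), HSPA5 (-1.45), PDIA3 (-1.29) and HSP90B1 (-1.20) were lower. Its sensor gene ERN1 (0.99, adjusted p = 7.09e-04) and SEL1L (0.36, adjusted p = 0.0066) rose. Of 36 proteasome subunit genes, 35 fell and none rose (median -0.87). PSMA3 had 39.4, 36.7 and 36.6 CPM in acute and 151, 162 and 139.6 CPM in parental libraries (-2.005, SE 0.08, adjusted p = 7.45e-11), and PSMD12 (-1.78), PSMD14 (-1.65), PSMD1 (-1.57), PSMA4 (-1.46) and PSMC3 (-1.41) were close to it.

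Most lysosome and autophagy genes rose. TFEB and TFE3, which AKT and mTORC1 hold in the cytoplasm, are the known activators of these genes through the CLEAR element. Of 43 lysosomal genes, 34 rose and 2 fell (median 0.87). PSAP (ENSG00000197746), the precursor of the saposins, had 1268, 1128 and 1132 CPM in acute and 421, 418 and 431 CPM in parental libraries (1.47, SE 0.11, adjusted p = 5.30e-08). GRN, progranulin, had 615, 514 and 519 CPM in acute and 178, 179.6 and 213 CPM in parental libraries (1.53, SE 0.13, adjusted p = 1.33e-07). ATP6V0A1, a subunit of the proton pump, had 201, 146 and 164 CPM in acute and 39.6, 42.4 and 45.4 CPM in parental libraries (2.004, SE 0.13, adjusted p = 1.11e-08). The groups did not overlap for any of these, nor for CD68 (1.56), the peptidase TPP1 (1.29), the cathepsins CTSS (1.17) and CTSB (1.005) or the membrane protein LAMP1 (0.38). GLA (-0.31, adjusted p = 0.0393) and ATP6AP1 (-1.69, adjusted p = 0.0448) were called lower, and both calls were lost with 1 library or another left out (adjusted p up to 0.150 and 0.169). ATP6AP1 had 3.9, 1.37 and 1.77 CPM in acute and 11.6, 10.6 and 0.612 CPM in parental libraries, so parental library 3 lay below all acute ones. The CLEAR core TCACGTGA, which contains the E-box CACGTG, was present in 18.5% of 27 lysosomal promoters and in 1.93% of all. In promoters of genes at least 2-fold higher its share was 1.72%. The stretches of acid glucosidase GAA (GRCh38.p14, plus strand, chr17:80101491-80101580) and the protective protein CTSA (plus strand, chr20:45891275-45891334) are shown with it in capitals.

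GAA promoter: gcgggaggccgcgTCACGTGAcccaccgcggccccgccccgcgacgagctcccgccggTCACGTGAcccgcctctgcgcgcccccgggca
CTSA promoter: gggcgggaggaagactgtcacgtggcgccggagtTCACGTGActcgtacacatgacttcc

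GAA had 159, 127 and 145 CPM in acute and 49.5, 48.01 and 71.1 CPM in parental libraries (1.35), and CTSA 188, 145 and 171 CPM in acute and 84.4, 74.6 and 82.1 CPM in parental libraries (1.06). Of 31 autophagy genes, 22 rose and 4 fell (median 0.81). SQSTM1, the cargo receptor p62, had 476, 383 and 430.3 CPM in acute and 92.6, 96.98 and 108 CPM in parental libraries (2.12, SE 0.09, adjusted p = 1.08e-10). GABARAPL1 (2.69) and GABARAP (1.82), which coat the autophagosome, the scramblase ATG9A (1.43) and the receptor NBR1 (0.92) rose, while the conjugation genes ATG5 (-0.82) and ATG12 (-0.69) fell. The conjugating enzyme ATG3 (-0.40) and ATG101 (-0.27) were called lower until a library was left out (adjusted p up to 0.0671 and 0.143).

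Genes of mitochondrial cell death moved in both directions. Of 12 BH3-only and effector genes, 6 rose and 3 fell (median 0.32). Besides BMF, the PUMA gene BBC3 had 31.5, 36.9 and 41.8 CPM in acute and 8.23, 8.49 and 11.2 CPM in parental libraries (1.98, SE 0.17, adjusted p = 1.67e-07). BCL2L11, the BIM gene, had 78.1, 77.4 and 69.6 CPM in acute and 52.9, 54.3 and 50.9 CPM in parental libraries (0.51, SE 0.08, adjusted p = 9.76e-05). BAD (1.35) and the effector BAX (0.92) rose, and BNIP3 (-1.85), BID (-0.62) and BAK1 (-0.23, adjusted p up to 0.0951 with a library left out) fell. Among 9 anti-apoptotic genes, 3 rose and 3 fell, and the median of 0.09 was below 0 in each acute library taken on its own and ran from -0.25 to 0.20 over the alternatives. BCL2 (ENSG00000171791), the target of venetoclax, had 50.7, 65.6 and 62.2 CPM in acute and 141, 132 and 127 CPM in parental libraries (-1.16, SE 0.10, adjusted p = 2.57e-07). MCL1 (ENSG00000143384), a short-lived relative, had 206, 169 and 173 CPM in acute and 317, 318 and 303 CPM in parental libraries (-0.78, SE 0.12, adjusted p = 4.08e-05). BCL2L1, the BCL-XL gene, was not called, with 17.2, 21.4 and 20.2 CPM in acute and 18.5, 16.8 and 19.7 CPM in parental libraries (0.09, adjusted p = 0.517). CFLAR, which blocks caspase-8, rose, with 171, 131 and 147 CPM in acute and 72.8, 64.8 and 62.5 CPM in parental libraries (1.17, SE 0.10, adjusted p = 2.64e-07), as did BIRC2 (0.98) and BCL2L2 (0.59), and XIAP fell (-0.52, adjusted p = 0.0283, up to 0.105 with a library left out).

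Among targets of p53, interferon-stimulated genes and antigen presentation genes, more members rose than fell. Of 26 p53 targets, 20 rose and none fell (median 0.95). TP53INP1 had 78.3, 60.8 and 59.3 CPM in acute and 5.63, 5.35 and 4.39 CPM in parental libraries (3.69, SE 0.19, adjusted p = 1.39e-09), and the AKT inhibitor PHLDA3 (1.88), the excision repair genes XPC (1.77) and DDB2 (1.49) and the death receptor TNFRSF10B (1.19) were higher without overlap. Of 36 interferon-stimulated genes, 17 rose and 3 fell (median 0.64). In this list and the MHC class II list below, a smaller share was called than the 62.6% of all genes tested. STAT2, a subunit of the interferon-activated factor, had 242, 154 and 173 CPM in acute and 48.8, 47.8 and 42.8 CPM in parental libraries (2.03, SE 0.15, adjusted p = 3.97e-08). IRF7 (2.04), OAS1 (2.20), GBP2 (2.06) and TRIM22 (1.76) rose, and USP18 (-1.03), BST2 (-0.80) and PARP14 (-0.35, adjusted p up to 0.176 with a library left out) fell. The interferon element was searched as TTTC, any pair of bases and TTTC again, and was present in 65.4% of 26 promoters of the list and 2.94% of all. In promoters of genes at least 2-fold higher its share was 3.06%. Of 7 MHC class II genes, 4 rose and none fell (median 0.79). CIITA, their master regulator, had 51.6, 46.6 and 48.4 CPM in acute and 20.8, 26.2 and 20.7 CPM in parental libraries (1.12, SE 0.14, adjusted p = 9.94e-06). The invariant chain CD74 (0.79), HLA-DMA (2.52) and HLA-DMB (2.80) rose, although reads of HLA genes can go to identifiers of alternative sequences.

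Myeloid genes moved in both directions. Of 28 monocyte and macrophage genes, 11 rose and 3 fell (median 0.77). In this list and the neutrophil list below, a smaller share was called than the 62.6% of all genes tested. ITGAM (ENSG00000169896), the CD11b integrin of mature myeloid cells, had 69.3, 101 and 101 CPM in acute and 25.6, 27.7 and 27.9 CPM in parental libraries (1.75, SE 0.17, adjusted p = 7.12e-07). ITGAX, the CD11c gene, had 53.7, 43.7 and 51.2 CPM in acute and 9.78, 9.86 and 11.98 CPM in parental libraries (2.23, SE 0.32, adjusted p = 2.74e-05). The Fc receptor gene FCGR2A (1.67) rose and FCGR1A (-1.23) and the pattern receptor TLR2 (-0.64) fell, the Fc receptors with the caveat that near-identical copies exist. VCAN (-3.27) fell and stood at -4.30 without the FL library. CD14, the monocyte co-receptor, was under 1 CPM in all 6 libraries and was not called (1.12, adjusted p = 0.176), although it passed without parental replicate 2 (2.10, adjusted p = 0.0388). Of 11 neutrophil granule genes, 4 fell and 2 rose, and their median of 0.06 ran from -0.24 to 0.30 over the alternatives. MPO (ENSG00000005381), myeloperoxidase, had 4.66, 4.95 and 5.16 CPM in acute and 64.3, 60.6 and 79.2 CPM in parental libraries (-3.79, SE 0.41, adjusted p = 2.25e-06). PRTN3 (-2.02), CTSG (-0.69) and the granule proteoglycan SRGN (-0.70) were lower, and CFD, complement factor D, was higher, with 348, 329 and 736 CPM in acute and 38.1, 41.4 and 62.4 CPM in parental libraries (3.32, SE 0.66, adjusted p = 5.70e-04), as was PRSS57 (1.03).

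Of 30 myeloid transcription factor genes, 14 rose and 5 fell (median 0.33). SPI1, the PU.1 gene, had 177, 158 and 187 CPM in acute and 78.6, 78.8 and 102 CPM in parental libraries (1.01, SE 0.12, adjusted p = 3.97e-06). MYB, a factor of progenitors, had 188, 225 and 209 CPM in acute and 416, 417 and 401 CPM in parental libraries (-0.99, SE 0.08, adjusted p = 9.65e-08). HOXA9, a leukaemic driver in cells with KMT2A fusions, had 130.2, 125 and 150.0 CPM in acute and 87.6, 89.6 and 85.4 CPM in parental libraries (0.63, SE 0.09, adjusted p = 2.15e-05). Its partner MEIS1 was not called, with 49.4, 55.3 and 45.8 CPM in acute and 42.4, 42.2 and 43.3 CPM in parental libraries (0.23, adjusted p = 0.0806). CEBPA had 81.02, 104 and 281 CPM in acute and 26.3, 34.05 and 62.1 CPM in parental libraries (1.93, adjusted p = 0.0182). Its call was lost without any 1 of 3 libraries, and without the FL library the value was 1.18 (adjusted p = 0.129). LMO2 (1.14) rose, and CEBPG (-0.62), GATA2 (-1.27) and IKZF1 (-0.27) fell. Of 24 chemokine receptor and adhesion genes, 12 rose and 3 fell (median 0.50). CXCR4, which holds cells in the marrow, had 238, 207 and 203 CPM in acute and 141, 145 and 138 CPM in parental libraries (0.61, SE 0.11, adjusted p = 2.73e-04). The selectin ligand SELPLG (1.46), ICAM3 (1.41) and ITGAL (0.73) rose, and SPN (-0.55), ITGB1 (-0.41) and ITGA4 (-0.43) fell.

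Chromatin genes moved in both directions. Of 23 chromatin and DNA methylation genes, 15 fell and 4 rose (median -1.02). DNMT1, which copies methylation after replication, had 182, 177 and 167 CPM in acute and 551, 540.0 and 501 CPM in parental libraries (-1.60, SE 0.08, adjusted p = 5.71e-10). EZH2, the Polycomb methyltransferase, had 18.6, 20.00 and 19.7 CPM in acute and 87.6, 84.5 and 83.4 CPM in parental libraries (-2.13, SE 0.09, adjusted p = 1.34e-10). HELLS (-4.23), SUV39H2 (-3.20), the lamin gene LMNB1 (-1.83) and HDAC2 (-1.06) fell, and TET2 (0.42), SETDB1 (0.37), EHMT1 (0.35) and DNMT3A (0.41, adjusted p up to 0.0769 with a library left out) rose. Of 16 histone genes tested in these poly(A) libraries, 10 rose and 4 fell (median 2.20). Replication-coupled histone transcripts normally end in a stem-loop without a poly(A) tail, so such libraries hold only their polyadenylated forms. H1-2 (4.06) and H2BC5 (3.67) rose with H2AC6 and H2BC12, while the variant H2AZ1 had 42.4, 50.8 and 48.1 CPM in acute and 486, 514 and 456 CPM in parental libraries (-3.37, SE 0.11, adjusted p = 1.29e-11), and H2AZ2 (-0.90), H2AX (-1.20) and H3-3A (-0.72) were lower.

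ABC transporter and sphingolipid genes had nearly even counts, and in both lists a smaller share was called than the 62.6% of all genes tested. Of 21 ABC transporter genes, 6 rose and 6 fell (median 0.18, from -0.06 to 0.29 over the alternatives). ABCA7 had 346, 222 and 348 CPM in acute and 28.4, 19.1 and 25.8 CPM in parental libraries, and ABCC6 (1.58) and ABCC10 (1.13) rose, while the mitochondrial ABCB10 (-1.77), the ribosome recycling factor ABCE1 (-1.16) and the peroxisomal ABCD3 (-1.14) fell. Of 23 sphingolipid genes, 5 rose and 6 fell (median 0.14). The acid ceramidase ASAH1, a lysosomal enzyme, had 185, 136 and 141 CPM in acute and 52.3, 50.9 and 47.3 CPM in parental libraries (1.62, SE 0.16, adjusted p = 5.71e-07), the acid sphingomyelinase SMPD1 rose by 1.69 on the log2 scale, and the ceramide synthase CERS6 (-1.36), SPHK1 (-1.16) and UGCG (-0.94) fell. CERS4 (1.96), ACER3 (0.502) and SGPL1 (0.33) were called higher until a library was left out (adjusted p up to 0.0623, 0.122 and 0.175).

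**Figure D4:**
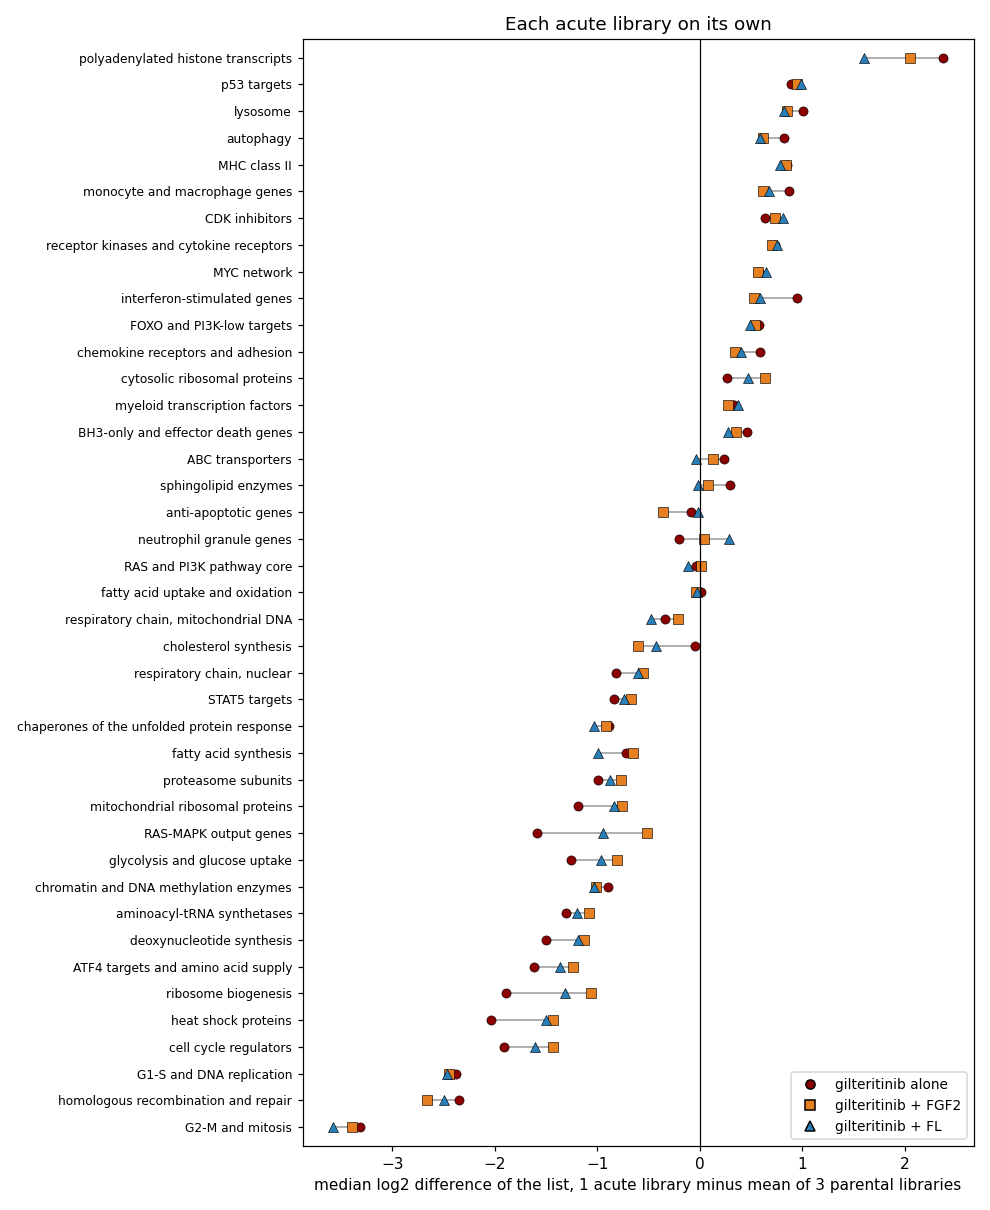
Median log2 difference of each gene list in each acute library on its own (circle, gilteritinib alone; square, with FGF2; triangle, with FL) from the mean of the 3 parental libraries. The symbols nearly coincide for G1-S genes (-2.38, -2.45 and -2.47) and lie farthest apart among RAS-MAPK outputs (-1.59, -0.52 and -0.94), with no test of the difference.

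The spread among the 3 acute libraries was described in the genes that changed at least 2-fold, a choice these libraries made themselves. Among the 2663 genes at least 2-fold higher, the median range across the 3 acute libraries was 0.42 on the log2 scale, and 366 genes spread by more than 1. Among the 2205 genes at least 2-fold lower, the median range was 0.48, and 397 spread by more than 1. In these sets, 2604 and 2186 genes had all 3 acute libraries beyond all 3 parental ones. The library with gilteritinib alone was the farthest from the parental mean for 1312 of the higher and 1323 of the lower genes. The FGF2 library was the farthest for 424 and 343 genes, and the FL library for 927 and 539. Median changes were 1.63, 1.49 and 1.58 for the higher set and -1.72, -1.40 and -1.50 for the lower set, in the order alone, FGF2 and FL.

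Both sets differed in make-up from the genes tested. Protein-coding genes made up 76% of the higher, 89.2% of the lower and 83.2% of all genes. Pseudogenes made up 8.94%, 3.85% and 5.74%, and long non-coding genes 1.99%, 0.41% and 0.79%. The median level of protein-coding genes in the higher set was 13.6 CPM in acute and 3.99 CPM in parental cells, and in the lower set 12.6 CPM in acute and 42.6 CPM in parental cells. The parental values took part in choosing both sets, so they describe the sets and test nothing.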

How the data were processed

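Poly(A) RNA was sequenced on a NovaSeq instrument from TruSeq Stranded mRNA libraries, per the labels' protocols. The deposited values are estimated counts per Ensembl gene, made by the authors with kallisto on GRCh37, per the submitters' processing notes. The kallisto version, its strand setting and how transcripts were summed to genes are not given in the sources used here. Of 39293 identifiers, 33458 (85.2%) were matched to a gene name, and these held 94.9% to 95.7% of each library's counts. No sequence coordinate refers to GRCh37: promoters came from RefSeq on GRCh38.p14.

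Estimated counts were rounded to whole numbers and scaled by TMM. Genes were kept with filterByExpr (minimum count 10, minimum total 15). edgeR 4.0.16 (R 4.3.3) fitted robust quasi-likelihood models over 14 libraries in 4 arms, the 3 acute libraries as 1 arm, and p-values were adjusted over all 15756 genes by Benjamini-Hochberg at 0.05. The standard error is the log2 fold change divided by the square root of F. CPM used TMM library sizes, and log2 CPM a prior count of 2. Of 1052 list genes, 1044 were in the table.

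The acute members and the lists were chosen with earlier results of these data known. Genes were named by rule: the 12 largest changes in each direction among called genes with mean log2 CPM of at least 3 whose acute libraries all lay beyond all parental ones, the 8 most abundant in each direction that crossed from under 1 to at least 5 CPM or the reverse, up to 6 list members with the smallest adjusted p or against the list's direction, and a fixed panel. Genes with a printed promoter were chosen after their values were seen. Some genes that the rule takes in are not reported here. Alternatives used other scalings, filters, tools (DESeq2 1.42.0, limma 3.58.1), arms and left-out libraries. In counts simulated for 15372 genes, 65 genes each were changed 1.5-fold, 2-fold and 4-fold, with no difference between ligand states. Of these, 41.5%, 86.2% and 96.9% were recovered, and 3.31% of calls were false. In the real data 62.6% of genes passed and the acute libraries differed in ligand, so these rates do not carry over to them.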

Additional observations from a re-analysis of the deposited data

Results flagged for a closer look

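In 2 of the named genes, 1 acute library lay above all 3 parental libraries while another lay below them all. DUSP6 stood at 30.987 CPM with gilteritinib alone, 83.709 CPM with FGF2 and 56.397 CPM with FL, against 63.3, 65.8 and 69.8 CPM in parental libraries. PIM2 stood at 8.755 CPM with gilteritinib alone and 13.402 CPM with FGF2, against 11.1, 11.4 and 11.3 CPM in parental libraries. These differences between ligand states were not tested, since each state has 1 library.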

How the results depend on the processing

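No named gene past the threshold changed direction under any alternative run. Uncalled genes such as PIM2, DUSP6, CDK6 and BCL2L1 did change sign under some. Of the comparisons of a named gene with an alternative, 5981 stayed on the same side of the threshold, 253 lost the call and 9 gained one. Testing against a 1.5-fold change left 2742 genes higher and 2655 lower. Leaving out 1 library at a time gave 4584 to 4834 genes higher and 4473 to 4722 lower. At 2-fold or more these fits gave 2493 to 2680 higher and 2067 to 2360 lower. DESeq2 gave 4956 higher and 4938 lower, limma-voom 5103 and 4796. Upper quartile scaling moved the median of all genes to 0.18 and gave 5772 higher and 4232 lower. Of 41 lists, 2 changed the sign of their median under a scaling and 5 under any alternative. No paired analysis was possible because the acute libraries all carry the number 1, which cannot pair them with parental libraries 1 to 3. Genes near the threshold, with 1 acute library for each ligand, are limited by this number of libraries.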
